A study of Mus musculus with 21 samples.

Results

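Glucose transporters and enzymes of glycolysis were followed in B16-F10 cells, a melanoma line from the C57BL/6J mouse obtained from ATCC and grown in RPMI medium with 10% fetal bovine serum. The genes were the transporters Slc2a1 and Slc2a3, the hexokinases Hk1 and Hk2, the phosphofructokinases Pfkl and Pfkp, aldolase Aldoa, phosphoglycerate kinase Pgk1, enolase Eno2 and lactate dehydrogenase Ldha. They were measured by the 14 probe sets of the Affymetrix U74Av2 mouse array whose annotation names 1 of these 10 genes and no other gene, out of 12488 probe sets on the array and 8251 genes with such a probe set. All 14 were among the 12422 probe sets tested, since no filter on low values was applied. Hk2, Pfkp, Aldoa and Slc2a3 had 2 probe sets each, and the one with the highest mean over the arrays stands for the gene where genes are counted. A probe set is a group of short oligonucleotides on the array that together give 1 signal for a transcript, and the values are log2 signals, so that a difference of 1 is a doubling.

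The study used 21 arrays in 9 groups. In the chamber set, 3 samples were kept for 24 h at 1% oxygen in a sealed Billups-Rothenberg chamber, beside 2 controls at 21% oxygen. Experiments 1 and 2 each compared 3 samples kept for 24 h at 1% oxygen in a flow-regulated incubator with 2 controls at 21% oxygen. Experiment 3 compared 2 samples treated for 24 h with 100 µM cobalt chloride (CoCl2) and 2 treated with 200 µM CoCl2, which the submitters used to mimic hypoxia, with 2 controls at 21% oxygen. How long the controls were cultured is not given, and the samples of a group are called biological replicates without a statement that each was a separate culture, so the p-values measure the spread between these samples, which may be technical. All samples came from 1 cell line, and the RNA was from whole cultures, so a change in RNA per cell and a change in the make-up of the culture cannot be told apart.

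Glycolysis turns glucose into pyruvate and yields ATP without oxygen. Glucose enters the cell through facilitative transporters, is trapped by hexokinase, is committed to breakdown by phosphofructokinase, and is split by aldolase into smaller sugars that pass through phosphoglycerate kinase and enolase to pyruvate, which lactate dehydrogenase can turn into lactate. Most steps have several isoforms encoded by separate genes. Many of these genes are textbook targets of the hypoxia-inducible factors, transcription factors whose alpha subunit is degraded when oxygen is plentiful and which bind the short motifs ACGTG and GCGTG in hypoxia response elements. Cobalt ions stabilise the same subunit at normal oxygen.

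The start-site regions of the genes were read from RefSeq sequence of the mouse genome build GRCm38.p6, as windows of 300 bases from 250 bases before to 50 after an annotated start. The table held 13 such windows for 9 of the genes, all but Slc2a3. The windows below are shown because they carry the motifs by which such genes are usually described. They belong to the transporter, hexokinase and phosphofructokinase genes that rose most at 1% oxygen, to Hk1, which did not pass the test there, and to Pgk1 and Ldha from the lower part of the pathway. They are written 5′ to 3′ on the gene's strand, and capitals mark each match to ACGTG or GCGTG on either strand (CACGT and CACGC are the same motifs read on the other strand).

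Slc2a1 (chr4:119108495-119108794, plus strand): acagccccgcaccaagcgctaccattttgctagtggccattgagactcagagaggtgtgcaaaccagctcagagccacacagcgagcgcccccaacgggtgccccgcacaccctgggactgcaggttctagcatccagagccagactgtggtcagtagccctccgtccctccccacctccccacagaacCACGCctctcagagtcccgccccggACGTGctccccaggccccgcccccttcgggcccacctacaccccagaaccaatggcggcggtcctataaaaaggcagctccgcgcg
Hk2 (chr6:82774405-82774704, minus strand): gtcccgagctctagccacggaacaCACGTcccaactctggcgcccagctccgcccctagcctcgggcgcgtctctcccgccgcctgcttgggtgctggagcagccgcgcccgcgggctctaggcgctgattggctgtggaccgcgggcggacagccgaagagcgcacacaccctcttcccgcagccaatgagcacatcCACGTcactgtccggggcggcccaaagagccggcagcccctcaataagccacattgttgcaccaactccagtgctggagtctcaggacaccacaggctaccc
Hk1 (chr10:62340372-62340671, minus strand): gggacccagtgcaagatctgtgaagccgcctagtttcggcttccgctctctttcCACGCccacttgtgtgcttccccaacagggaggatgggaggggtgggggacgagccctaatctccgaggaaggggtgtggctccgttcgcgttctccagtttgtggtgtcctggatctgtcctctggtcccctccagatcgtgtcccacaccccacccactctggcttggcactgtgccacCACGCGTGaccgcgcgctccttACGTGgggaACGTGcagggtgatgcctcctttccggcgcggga
Pfkp (chr13:6648722-6649021, minus strand): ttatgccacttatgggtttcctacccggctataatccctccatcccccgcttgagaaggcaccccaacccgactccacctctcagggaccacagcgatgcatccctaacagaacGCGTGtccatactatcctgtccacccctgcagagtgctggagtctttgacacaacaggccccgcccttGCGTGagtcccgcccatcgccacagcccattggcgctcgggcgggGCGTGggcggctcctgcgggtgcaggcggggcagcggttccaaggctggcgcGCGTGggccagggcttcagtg
Pgk1 (chrX:106186850-106187149, plus strand): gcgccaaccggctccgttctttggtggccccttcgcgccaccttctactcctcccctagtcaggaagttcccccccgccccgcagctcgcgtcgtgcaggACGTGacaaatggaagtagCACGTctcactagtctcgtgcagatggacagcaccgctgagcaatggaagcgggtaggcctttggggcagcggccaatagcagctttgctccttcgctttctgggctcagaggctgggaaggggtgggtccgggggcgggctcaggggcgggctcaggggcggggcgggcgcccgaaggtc
Ldha (chr7:46845554-46845853, plus strand): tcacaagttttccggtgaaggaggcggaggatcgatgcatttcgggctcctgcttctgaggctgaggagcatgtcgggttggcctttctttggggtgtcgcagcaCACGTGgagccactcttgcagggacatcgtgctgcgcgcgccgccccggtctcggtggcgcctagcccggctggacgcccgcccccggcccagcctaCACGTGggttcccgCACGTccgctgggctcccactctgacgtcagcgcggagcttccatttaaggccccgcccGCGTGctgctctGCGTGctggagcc

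Slc2a1 had 1 match to each motif, the ACGTG beginning 36 bases before the start (position -36). Hk2 had 2 matches to this motif, at -226 and -52, and Pgk1 had 2, at -150 and -131. Pfkp had 4 matches to the other motif, GCGTG, and none to the first. Ldha had 5 matches to the first and 2 to the other, where a palindrome that holds the motif on both strands counts once on each. Hk1 had 2 to the first and 3 to the other. The first motif occurred in a window of 6 of the 9 genes, the exceptions being Pfkl, Pfkp and Eno2, and either motif occurred in 8 of the 9, all but Eno2. Counted by window, since some genes have several, 7 of the 13 held the first motif and 10 of the 13 either. Of all 32851 windows in the table, 19.6% held the first motif, 32.4% the other and 43.8% at least 1 of them. These are matches of letters and not measured binding. Eno2, without a match in its window, rose at 1% oxygen. Hk1, with 5 matches in the window shown and 0 in its other window, did not pass the test there. The part of the motifs in these changes was not tested.

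Array medians lay between 5.44 and 5.53 log2 units, and the range of all values was 1.37 to 13.27, so the arrays were on a common scale. Melanocyte markers served as a check of the line: 10 of 12 listed genes were measured, and their mean level was 8.30 to 8.42 on the hypoxia sets' controls. The Actb control signal at the 3′ end minus that at the 5′ end, a difference that grows when RNA is broken or copied incompletely, was 0.15 to 0.50 on the 15 arrays of the hypoxia sets. It was 1.41 and 1.62 on the controls of experiment 3, 2.36 and 2.16 at 100 µM and 1.47 and 0.50 at 200 µM. By Actb, both controls, both 100 µM arrays and 200 µM replicate 1 of experiment 3 therefore lay above all other arrays, whereas 200 µM replicate 2 did not. The matching Gapdh difference split these arrays by treatment. Controls of experiment 3 read 2.21 and 0.92 and the 100 µM arrays 1.44 and 2.18. Both 200 µM arrays, at 0.45 and 0.12, fell inside the span of 0.07 to 0.52 seen on the 15 arrays without CoCl2 or its controls. Results of experiment 3 are given below with these values in view, and their part in them was not tested except by an added fit with the Actb difference as a covariate.

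At 1% oxygen, 8 of the 10 genes rose, and the other two, Slc2a3 and Hk1, did not pass the test in any single set or in the mean of the sets. The changes spanned a wide range, from 2.75 for Pfkp and 2.38 for Slc2a1 through 2.07 for Hk2, 1.88 for Eno2 and 1.51 for Pfkl down to 0.61 for Pgk1, 0.42 for Aldoa and 0.39 for Ldha (log2 differences, mean of the 3 sets with equal weight). In terms of probe sets, 10 of 14 were higher and 0 lower in the limma test, a moderated linear model across all probe sets, at an adjusted p under 0.05, whereas 10.4% of all probe sets tested were called higher. The median change was 0.59 over the 14 probe sets and 0.02 over all probe sets tested. A doubling or more was reached by 5 of the 10 genes and by 145 probe sets, or 1.17%, of all tested. Counted set by set, 10 of 14 probe sets were called higher in the chamber (6.09% of all tested), 7 in experiment 1 (6.20%) and 8 in experiment 2 (5.94%), with none lower. On 10 of the 14 probe sets every 1% oxygen array lay above every control of its own set in all 3 sets, as they did on 6.01% of all probe sets tested.

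Markers of cell types were read on the same arrays, where 10.4% of all probe sets tested were called higher at 1% oxygen and 15.6% lower. Of 10 measured melanocyte markers 4 were called lower and 1 higher, among them Gpr143, a pigment cell receptor (-0.95, adjusted p = 6.0e-09), and Mitf, the melanocyte transcription factor (0.89, adjusted p = 2.2e-08). Their mean level on the hypoxia arrays was 8.31 to 8.36 in the chamber, 8.03 to 8.19 in experiment 1 and 8.27 to 8.38 in experiment 2. Of 9 leukocyte markers 2 were called higher, Cd68 (0.84, adjusted p = 2.1e-05) and Csf1r (0.19, adjusted p = 0.046). Of 6 epithelial markers 1 was, Cdh1 (0.21, adjusted p = 0.025). The differences of 8 fibroblast markers lay between -0.01 and 0.19 and those of 6 endothelial markers between -0.08 and 0.08, and none of them passed. The mean of the leukocyte markers was 4.74 to 4.77 on the chamber controls and 4.99 to 5.11 on the chamber hypoxia arrays, 4.91 to 4.99 and 4.96 to 5.21 in experiment 1, and 4.82 to 4.88 and 4.87 to 5.03 in experiment 2. The part of these shifts in the results was not tested.

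**Figure D1:**
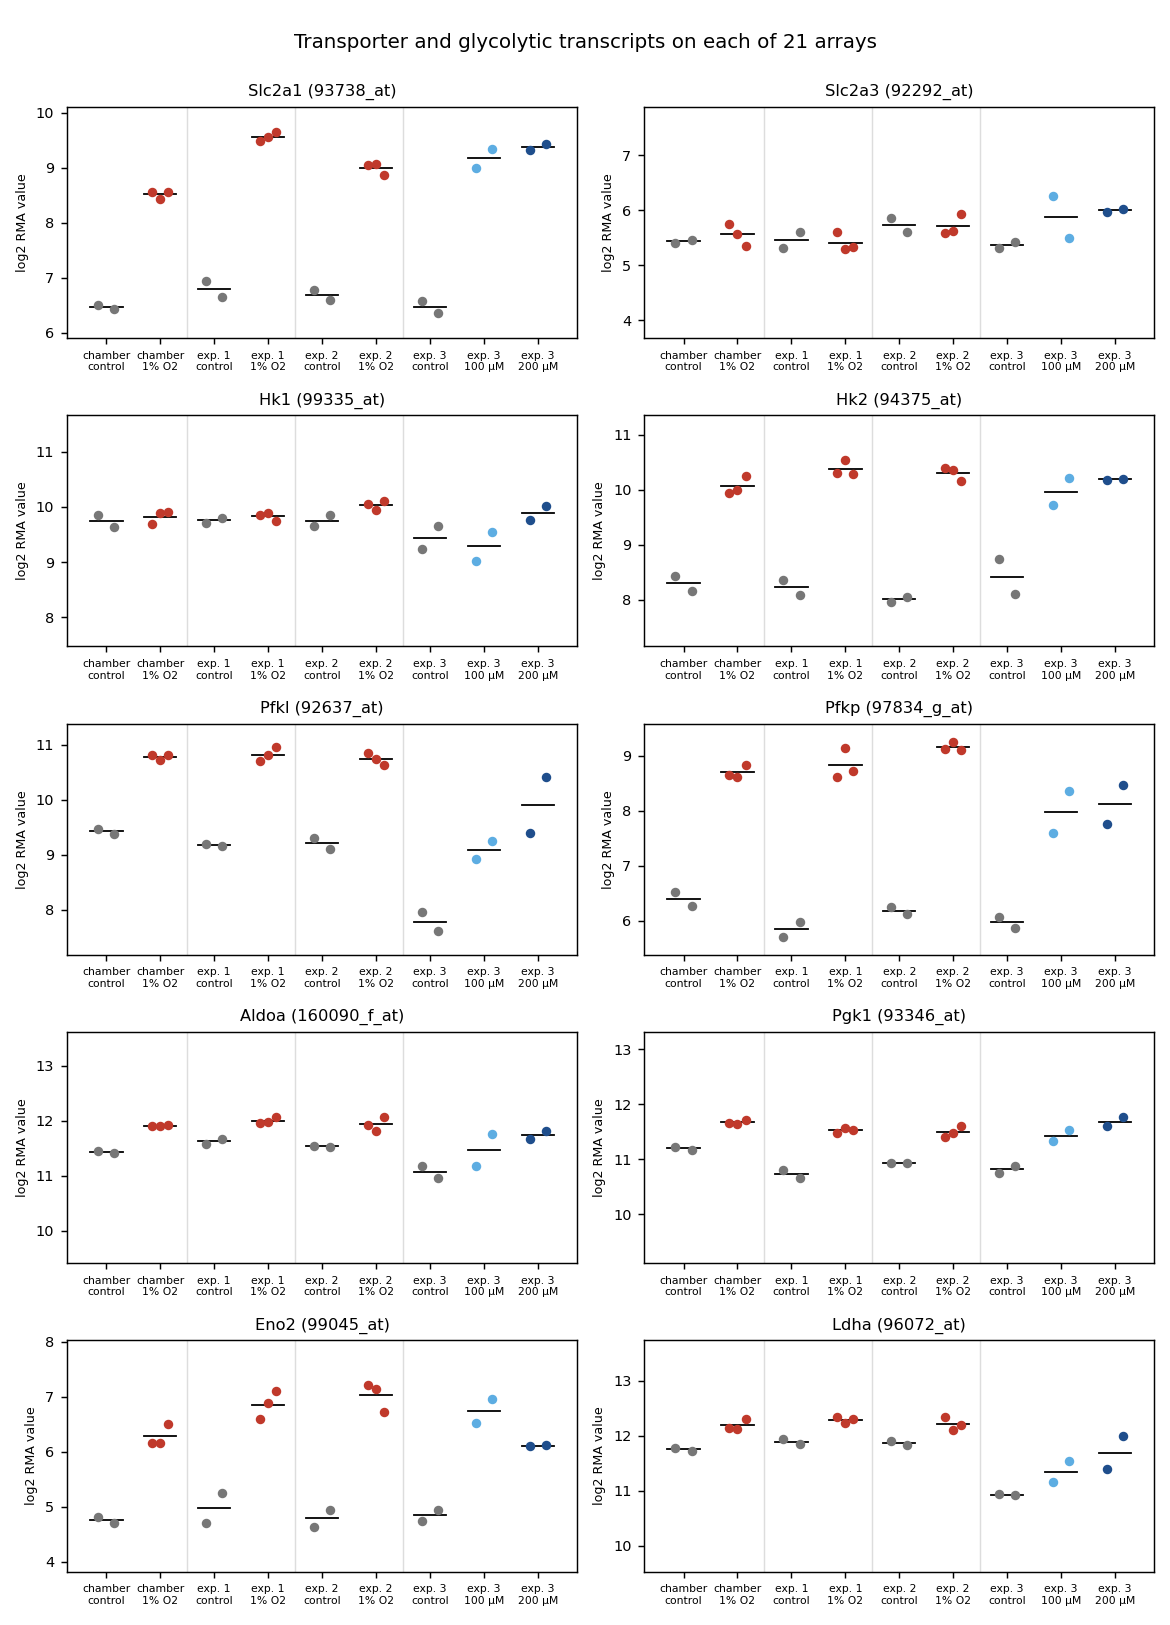
Log2 RMA value (vertical axis) of 1 probe set per gene on each of the 21 arrays, by group along the horizontal axis; points are arrays, short lines are group means, grey is control, red 1% oxygen, light and dark blue 100 and 200 µM CoCl2. Slc2a1, Hk2, Pfkl, Pfkp, Aldoa, Pgk1, Eno2 and Ldha lie above their own controls in all 3 hypoxia sets, whereas Slc2a3 overlaps with its controls in all 3 sets and Hk1 in 2 of the 3; the vertical position is not comparable between genes.

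**Figure D2:**
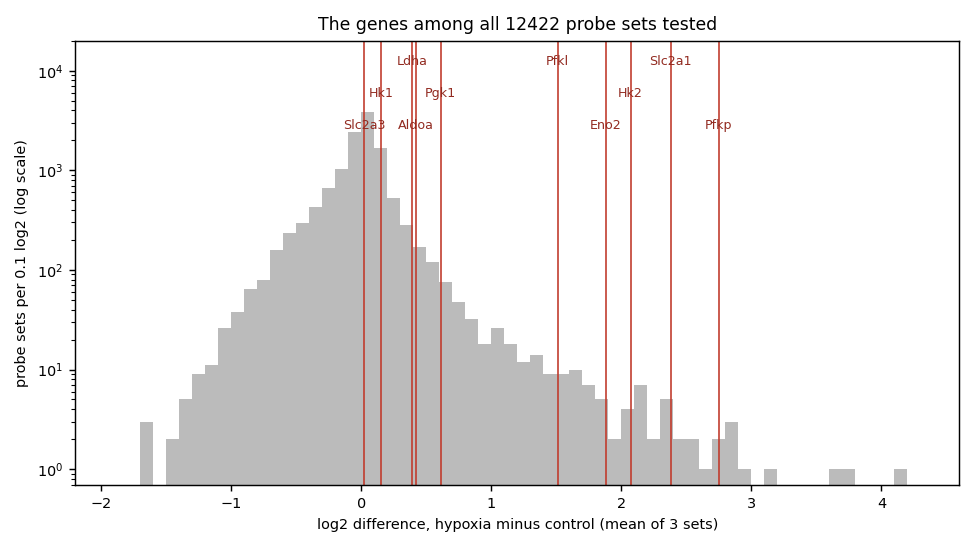
Histogram of the hypoxia minus control log2 difference (horizontal axis, mean of 3 sets) over all 12422 probe sets tested, with the number of probe sets per bin of 0.1 on a log vertical axis; red lines mark the 10 genes. Slc2a3 at 0.02 and Hk1 at 0.15 lie in the body of the histogram, and Pfkl, Eno2, Hk2, Slc2a1 and Pfkp, from 1.51 to 2.75, lie in its upper tail.

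Slc2a1 encodes GLUT1, the basal glucose transporter of most cells. In the chamber set its signal was 6.50 and 6.42 in the controls and 8.55, 8.43 and 8.56 at 1% oxygen. In experiment 1 the controls read 6.94 and 6.64 and the hypoxia arrays 9.49, 9.56 and 9.64. In experiment 2 the controls read 6.78 and 6.59 and the hypoxia arrays 9.05, 9.07 and 8.86. The groups were far apart in every set, and the arrays of a group lay close together. Slc2a1 was 5.20-fold higher at 1% oxygen over the 3 sets (log2 2.38, SE 0.07, limma adjusted p = 6.9e-16), and ranked 17 from the top among all probe sets tested. Experiment 1 gave the steepest rise, 2.77, followed by experiment 2 with 2.31 and the chamber with 2.05.

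Slc2a3 encodes GLUT3, a transporter of high affinity best known from neurons. Its brighter probe set (92292_at) read 5.41 and 5.47 in the chamber controls and 5.76, 5.58 and 5.36 after hypoxia in the chamber. The values were 5.32 and 5.61 against 5.61, 5.30 and 5.33 in experiment 1, and 5.87 and 5.60 against 5.59, 5.63 and 5.93 in experiment 2. Controls and hypoxia arrays overlapped in all 3 sets. The mean difference was 0.02 (SE 0.10, 95% interval -0.19 to 0.23, adjusted p = 0.94), and the second probe set (93804_at) gave -0.15 (95% interval -0.34 to 0.04, adjusted p = 0.27). A doubling lies outside both intervals. These signals were low to middling for the array, with 92292_at between the 46.9 and 64.1 percentile of all probe sets of an array.

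Hk2 encodes the inducible hexokinase typical of muscle and tumours. Its probe set 94375_at read 8.43 and 8.17 in the chamber controls and 9.94, 10.00 and 10.25 at 1% oxygen. In experiment 1 it read 8.37 and 8.09 against 10.30, 10.55 and 10.29, and in experiment 2 it read 7.96 and 8.06 against 10.39, 10.36 and 10.17. No hypoxia array came within 1 log2 unit of a control of its set. The difference was 2.07 (SE 0.10, 4.20-fold, adjusted p = 1.1e-12). The second Hk2 probe set, 161313_at, stayed between 2.19 and 3.09 on all 21 arrays, at the 1.42 to 12.1 percentile of the signals of an array, and did not follow the first (difference 0.06, adjusted p = 0.76).

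Hk1, the hexokinase found in most tissues, did not pass the test at 1% oxygen. The values were 9.85 and 9.64 in the chamber controls and 9.69, 9.89 and 9.90 at 1% oxygen, and 9.71 and 9.80 against 9.85, 9.89 and 9.75 in experiment 1. Hypoxia arrays overlapped with the controls in these 2 sets. In experiment 2 the 3 hypoxia arrays, at 10.05, 9.95 and 10.11, lay above the controls at 9.65 and 9.85. The difference of 0.28 there did not pass the test (adjusted p = 0.28), nor did the mean of 0.15 (SE 0.08, 95% interval -0.03 to 0.33, adjusted p = 0.24).

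Pfkp and Pfkl encode the platelet and liver types of phosphofructokinase, the enzyme of the first committed step of glycolysis. Pfkp (97834_g_at) read 6.53 and 6.27 in the chamber controls and 8.65, 8.62 and 8.84 at 1% oxygen. It read 5.71 and 5.99 against 8.62, 9.14 and 8.72 in experiment 1, and 6.25 and 6.12 against 9.13, 9.26 and 9.11 in experiment 2. This was the steepest rise of the 10 genes, 6.74-fold (log2 2.75, SE 0.12, adjusted p = 2.2e-13), and ranked 10 from the top of all probe sets tested. The other Pfkp probe set (97833_at) rose by 2.26 (adjusted p = 2.7e-12), so the pair had the same direction and differed in size.

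Pfkl read 9.48 and 9.39 in the chamber controls and 10.82, 10.72 and 10.82 at 1% oxygen. The values were 9.20 and 9.17 against 10.70, 10.81 and 10.96 in experiment 1, and 9.31 and 9.11 against 10.86, 10.74 and 10.64 in experiment 2. The hypoxia arrays of the 3 sets formed a band from 10.64 to 10.96, above all 6 controls. Pfkl rose 2.85-fold (log2 1.51, SE 0.11, adjusted p = 9.7e-10), less than Pfkp in each set.

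Aldoa, the aldolase of muscle and of most dividing cells, rose little. Its probe set 160090_f_at read 11.45 and 11.41 against 11.90, 11.91 and 11.92 in the chamber, 11.58 and 11.67 against 11.96, 11.97 and 12.07 in experiment 1, and 11.54 and 11.53 against 11.93, 11.81 and 12.06 in experiment 2. Every hypoxia array exceeded its controls. The mean difference was 0.42 (SE 0.08, 1.34-fold, adjusted p = 2.1e-04), and it passed the test by itself only in the chamber (0.48, adjusted p = 0.014), with 0.38 (adjusted p = 0.064) and 0.40 (adjusted p = 0.055) in experiments 1 and 2. The other probe set, 161889_f_at, gave 0.57 (adjusted p = 6.3e-05). Both carry the suffix of probe sets that can match a family of similar sequences, so the signal may not be from Aldoa alone. Without either control of the chamber set, the chamber call of 160090_f_at was lost (0.46 and 0.50, adjusted p = 0.12 and 0.077).

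Pgk1 makes ATP in the later steps of the pathway. It read 11.22 and 11.18 against 11.66, 11.65 and 11.72 in the chamber, 10.80 and 10.66 against 11.48, 11.58 and 11.53 in experiment 1, and 10.94 and 10.93 against 11.41, 11.49 and 11.61 in experiment 2. The controls differed between sets, with the chamber controls highest, while the hypoxia arrays of the 3 sets fell between 11.41 and 11.72. The difference was 0.61 (SE 0.06, 1.53-fold, adjusted p = 5.0e-08), and it passed the test in each set (0.47, 0.80 and 0.57 in the order above).

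Eno2 encodes gamma enolase, the enolase known from neurons. It read 4.82 and 4.71 against 6.17, 6.17 and 6.51 in the chamber set. In experiment 1 the controls were 4.71 and 5.25 and the hypoxia arrays 6.60, 6.88 and 7.10, and in experiment 2 the controls were 4.64 and 4.94 and the hypoxia arrays 7.21, 7.15 and 6.72. All 9 hypoxia arrays exceeded all 6 controls. Eno2 rose 3.69-fold (log2 1.88, SE 0.11, adjusted p = 2.0e-11). Its controls, at 4.64 to 5.25, lay below the array medians of 5.44 to 5.53. Over all arrays its signal was between the 36.2 and 78.4 percentile of an array. The part of this low start in the size of the rise was not tested.

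Ldha encodes the lactate dehydrogenase subunit that favours the making of lactate. It read 11.78 and 11.73 against 12.15, 12.13 and 12.30 in the chamber, 11.94 and 11.85 against 12.34, 12.23 and 12.30 in experiment 1, and 11.91 and 11.84 against 12.35, 12.10 and 12.20 in experiment 2. The groups did not overlap in any set. The mean difference was 0.39 (SE 0.08, 1.31-fold, adjusted p = 8.6e-04). By itself the chamber set passed the test (0.44, adjusted p = 0.037), and experiments 1 and 2 did not (0.39, adjusted p = 0.070, and 0.34, adjusted p = 0.15). The chamber call was lost when each array of that set was left out in turn (0.38 to 0.47, adjusted p from 0.061 to 0.21) and when array medians were aligned (0.40, adjusted p = 0.072).

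The probe sets of the 3 genes with the smallest rises were near the top of the array's signal range. On every array Ldha, Pgk1 and the brighter probe set of Aldoa stood at or above the 99.0 percentile of all signals, and the highest signal of an array lay between 12.88 and 13.27. The part of this position in the size of their changes was not tested.

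**Figure D3:**
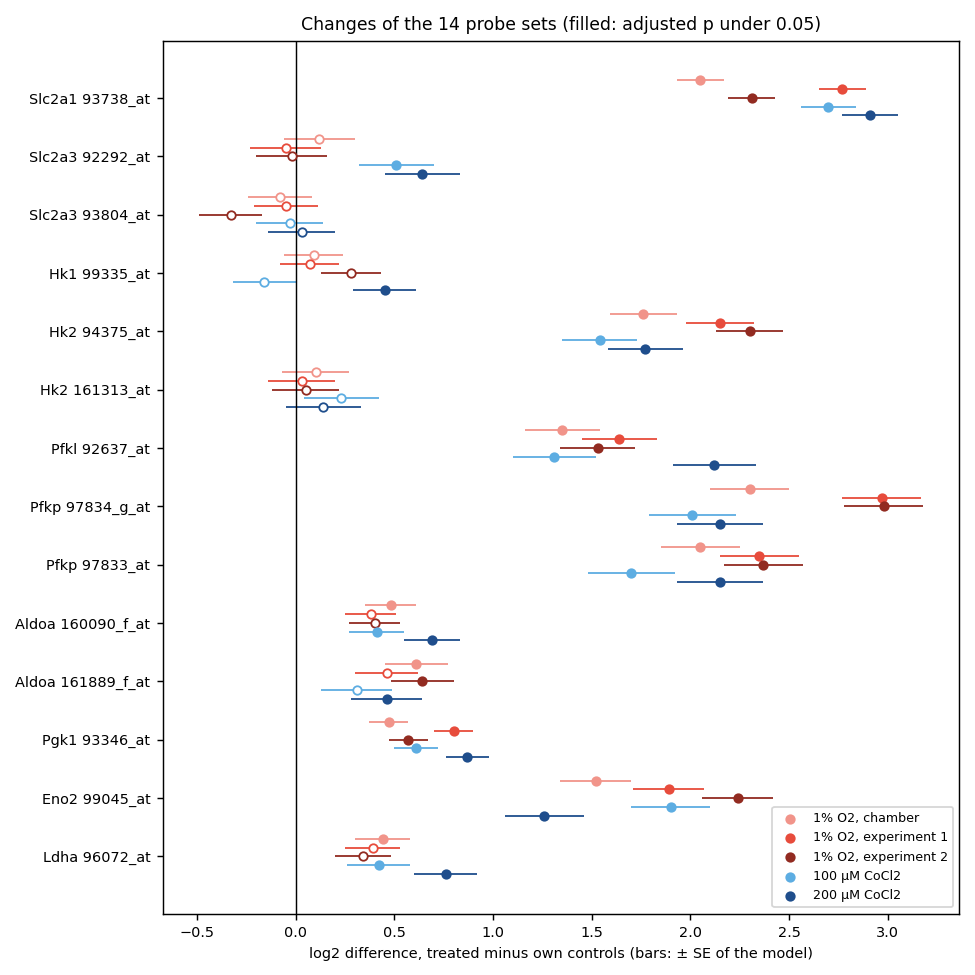
Log2 difference, treated minus own controls (horizontal axis), of each of the 14 probe sets (rows) in the 3 hypoxia sets (reds) and at 100 and 200 µM CoCl2 (blues); bars are ± 1 SE of the limma model and filled points passed an adjusted p of 0.05. Slc2a1, Hk2 (94375_at), Pfkl, Pfkp and Eno2 lie above 1 in all 5 comparisons, Aldoa, Pgk1 and Ldha lie between 0.31 and 0.87, and the 2 CoCl2 points of Slc2a3 (92292_at) stand apart from its 3 hypoxia points.

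In 3 chosen pairs of isoforms, the 2 signals did not move in parallel at 1% oxygen. The difference between 2 probe sets on the same array says nothing about which transcript is more abundant, since probes differ in brightness. Its change between conditions shows that the 2 signals changed unequally. Probe sets of 1 gene also did so at 1% oxygen, with 2.07 and 0.06 for Hk2 and 2.75 and 2.26 for Pfkp. A shift therefore need not mean that the isoform transcripts changed unequally. Slc2a1 minus Slc2a3 was 0.91 to 1.63 on the 6 controls of the hypoxia sets and 2.79 to 4.31 on the 9 hypoxia arrays, a shift of 2.36 (SE 0.17). Hk2 minus Hk1 was -1.80 to -1.34 on the controls and 0.06 to 0.65 at 1% oxygen, a shift of 1.92 (SE 0.13). Pfkp minus Pfkl was -3.49 to -2.96 on the controls and -2.24 to -1.48 at 1% oxygen, a shift of 1.24 (SE 0.10). The ranges did not overlap for any of the 3 pairs. Each shift had an exact permutation p of 0.0010 (two-sided, 1000 relabellings within the sets), the smallest these can give, and 0.0010 after Benjamini-Hochberg adjustment over the 3 pairs. The pairs were taken from genes chosen with earlier results known, and the shifts use the same values as the rises above. These p-values are therefore not separate support. With the second Pfkp probe set the shift was 0.75, and with the dim Hk2 probe set 161313_at the shift of Hk2 minus Hk1 was -0.09 (exact permutation p = 0.38). Under CoCl2 the shift of Slc2a1 minus Slc2a3 was 2.19 at 100 µM and 2.27 at 200 µM, that of Hk2 minus Hk1 was 1.70 and 1.31, and that of Pfkp minus Pfkl was 0.71 and 0.03, all without a test.

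**Figure D4:**
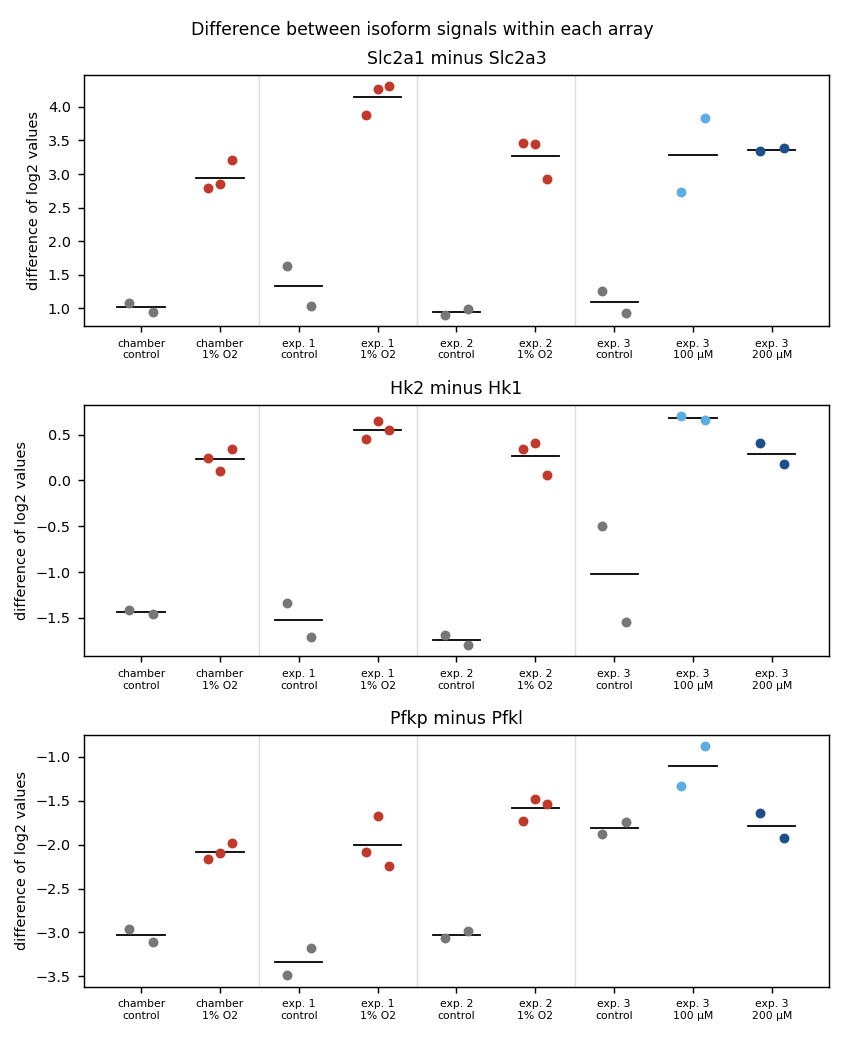
Difference of log2 values between 2 isoforms on each array (vertical axis), by group (horizontal axis), for Slc2a1 minus Slc2a3, Hk2 minus Hk1 and Pfkp minus Pfkl; points are arrays, lines group means, grey control, red 1% oxygen, blues CoCl2. The 9 hypoxia arrays lie above the 6 controls of the hypoxia sets in each panel, whereas the Pfkp minus Pfkl values at 200 µM CoCl2 lie about as high as the controls of experiment 3; only changes along a panel are comparable, not its absolute height.

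With CoCl2, 9 of the 10 genes rose at 100 µM and all 10 at 200 µM. Of the 14 probe sets, 10 were called higher at 100 µM, where 16% of all probe sets tested were, and 12 at 200 µM, where 17.5% were, with none lower. The median change of the 14 was 0.56 at 100 µM, against 0.12 over all probe sets tested, and 0.81 at 200 µM, against 0.13. Both doses were set against the same 2 controls. Most melanocyte markers moved in the opposite direction on these arrays. At each dose 9 of 10 measured markers were lower, where 17% and 18.4% of all probe sets tested were called lower. The other marker, Ednrb, was called higher at 100 µM (0.44, adjusted p = 0.045) and gave 0.30 at 200 µM (adjusted p = 0.17). The median change of the 10 markers was -1.36 at 100 µM and -2.29 at 200 µM, and their mean level was 8.22 to 8.34 in the controls, 6.95 to 7.05 at 100 µM and 6.04 to 6.21 at 200 µM. The mean level of 9 leukocyte markers was 4.81 to 4.85 in the controls, 5.26 to 5.51 at 100 µM and 5.49 to 5.54 at 200 µM, with 4 of 9 called higher at 100 µM and 2 of 9 at 200 µM. At 100 µM these were Cd68, a lysosomal protein abundant in macrophages (2.50), Cd79a (0.69), Ly6d (0.50) and Cd3e (0.49). At 200 µM they were Cd68 (3.98) and Csf1r (0.40). Ptprc, the common leukocyte antigen, was not called at either dose (0.11 and 0.06, adjusted p = 0.62 and 0.81). The mean of 6 epithelial markers was 4.36 to 4.42 in the controls and 4.64 to 4.79 at 100 µM and 4.75 to 4.76 at 200 µM. Of these, 3 were called higher at 100 µM and 4 at 200 µM, with 0 lower. Of 8 fibroblast markers, 0 were called higher and 1 lower at 100 µM, and 3 higher and 1 lower at 200 µM. Of 6 endothelial markers, 1 was called higher at 100 µM and 0 at 200 µM, with 0 lower. The part of these shifts in the results was not tested.

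Slc2a1 read 6.57 and 6.36 in the controls of experiment 3, 8.99 and 9.34 at 100 µM and 9.32 and 9.42 at 200 µM. All treated arrays were more than 2 log2 units above the controls. The rises were 2.70 (6.49-fold, adjusted p = 6.8e-12) and 2.91 (7.49-fold, adjusted p = 1.2e-12). Slc2a3 (92292_at), whose hypoxia arrays lay among their controls, read 5.31 and 5.43 in the controls, 6.26 and 5.50 at 100 µM and 5.98 and 6.03 at 200 µM. The 2 arrays at 100 µM disagreed, and the differences were 0.51 (adjusted p = 0.048) and 0.64 (adjusted p = 0.014). Without 100 µM replicate 1, the first of these was 0.13 (adjusted p = 0.71). It was also lost without control replicate 1 (0.45, adjusted p = 0.21) or control replicate 2 (0.57, adjusted p = 0.094), and the call at 200 µM was lost without control replicate 1 (0.58, adjusted p = 0.094) or 200 µM replicate 2 (0.61, adjusted p = 0.058). The second Slc2a3 probe set gave -0.03 and 0.03 at the 2 doses (adjusted p = 0.92 and 0.91).

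Hk2 (94375_at) read 8.75 and 8.10 in the controls, 9.72 and 10.21 at 100 µM and 10.18 and 10.20 at 200 µM, rises of 1.54 (adjusted p = 1.7e-06) and 1.77 (adjusted p = 1.7e-07). The dim Hk2 probe set was not called at either dose. Hk1 read 9.24 and 9.65 in the controls, 9.02 and 9.55 at 100 µM and 9.77 and 10.02 at 200 µM. Only the higher dose passed the test, with a difference of 0.45 (adjusted p = 0.032), and the lower dose gave -0.16 (adjusted p = 0.45). The Hk1 call at 200 µM was lost when only the arrays of experiment 3 were fitted (adjusted p = 0.21) and with the Actb difference as a covariate (0.33, adjusted p = 0.19). It was lost too without control replicate 1 (0.25, adjusted p = 0.36) or 200 µM replicate 2 (0.33, adjusted p = 0.19), and without 100 µM replicate 2 Hk1 was called lower at 100 µM (-0.42, adjusted p = 0.042).

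Pfkl started from a lower signal in experiment 3 than elsewhere, with controls at 7.96 and 7.61, and read 8.93 and 9.25 at 100 µM and 9.40 and 10.41 at 200 µM. The rises were 1.31 (adjusted p = 5.9e-05) and 2.12 (adjusted p = 6.3e-08). Pfkp (97834_g_at) read 6.08 and 5.87 in the controls, 7.60 and 8.37 at 100 µM and 7.76 and 8.48 at 200 µM, rises of 2.01 (adjusted p = 6.3e-07) and 2.15 (adjusted p = 1.6e-07). The treated replicates of both genes lay further apart than the hypoxia replicates of any set. Its second probe set rose by 1.70 and 2.15.

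Eno2 read 4.75 and 4.94 in the controls, 6.52 and 6.97 at 100 µM and 6.10 and 6.13 at 200 µM, and was the gene with the smaller rise at the higher dose (1.90, adjusted p = 3.6e-07, then 1.26, adjusted p = 4.3e-05). Pgk1 read 10.76 and 10.89, then 11.33 and 11.54, then 11.61 and 11.77, rises of 0.61 (adjusted p = 2.4e-04) and 0.87 (adjusted p = 2.6e-06). Ldha read 10.95 and 10.92 in the controls, 11.16 and 11.54 at 100 µM and 11.39 and 12.00 at 200 µM. Its rises of 0.42 (adjusted p = 0.045) and 0.76 (adjusted p = 5.8e-04) came with wide gaps between the treated replicates. Aldoa (160090_f_at) read 11.17 and 10.95, then 11.17 and 11.76, then 11.67 and 11.82, so that 1 array at 100 µM was no higher than a control. Its rises were 0.41 (adjusted p = 0.037) and 0.69 (adjusted p = 7.9e-04), and the second Aldoa probe set gave 0.31 (adjusted p = 0.17) and 0.46 (adjusted p = 0.048). Without 100 µM replicate 1 the second probe set gave 0.66 at 100 µM (adjusted p = 0.0072), and its call at 200 µM was lost without either control or 200 µM replicate 1 (0.23 to 0.58, adjusted p from 0.058 to 0.43). With only the arrays of experiment 3 in the fit, neither Aldoa probe set passed at 200 µM (adjusted p = 0.057 and 0.25). At 100 µM the calls of Aldoa and Ldha were lost with only the arrays of experiment 3 in the fit (adjusted p = 0.25 and 0.26). The Aldoa call at 100 µM was also lost without control replicate 2 (0.30, adjusted p = 0.22) or 100 µM replicate 2 (0.11, adjusted p = 0.51), and that of Ldha without either control or 100 µM replicate 2 (0.23 to 0.43, adjusted p from 0.13 to 0.29).

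Between the doses, 3 of the 14 probe sets differed, against 13.6% of all tested. Pfkl was higher at 200 µM than at 100 µM by 0.81 (adjusted p = 0.011) and Hk1 by 0.61 (adjusted p = 0.013), and Eno2 was lower at 200 µM (-0.63, adjusted p = 0.042). The 2 doses did not overlap in any of these genes, with 2 arrays each. The genes were picked by the test on the same arrays, so this separation is not separate support. The differences rest on few arrays: without 200 µM replicate 2 none of the 14 passed, and Pfkl then differed by 0.31 (adjusted p = 0.35). Without 100 µM replicate 1 only 1 of 14 passed, and without 100 µM replicate 2 there were 7. Hk1 did not pass without 100 µM replicate 1 (0.35, adjusted p = 0.20) or 200 µM replicate 2 (0.49, adjusted p = 0.17), nor did Pfkl without 100 µM replicate 1 (0.65, adjusted p = 0.093). Eno2 passed in 1 of the 6 fits that left out an array of experiment 3, the one without 100 µM replicate 1, and lay between -0.65 and -0.41 in the other five (adjusted p from 0.050 to 0.23). With the Actb difference as a covariate none passed, and the Pfkl difference turned to -0.45 (adjusted p = 0.45). Arrays at 200 µM also had lower Gapdh 3′ to 5′ differences than those at 100 µM, and the part of that was not tested. Slc2a1, whose doses differed by 0.21 (95% interval -0.07 to 0.49, adjusted p = 0.39), and Hk2, by 0.22 (95% interval -0.16 to 0.61, adjusted p = 0.53), did not pass the test.

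The effect of CoCl2, as the mean of its doses, was compared with the mean effect of 1% oxygen, each against its own controls. CoCl2 was given only in experiment 3, whose Actb differences are stated above, so the agent and the set of samples cannot be told apart. Slc2a1 rose more with CoCl2, by 0.42 (SE 0.14, adjusted p = 0.034), and Pfkp (97834_g_at) less, by -0.67 (SE 0.23, adjusted p = 0.042). These were 2 of 14 probe sets, while 20.2% of all tested differed in this comparison. The second Pfkp probe set had the same sign without passing the test (-0.33, adjusted p = 0.29). Slc2a3 (92292_at) differed by 0.56 with an adjusted p of 0.050, just outside the threshold. With experiment 3 control replicate 2 left out, Slc2a1 gave 0.31 (adjusted p = 0.22) and Pfkp -0.78 (adjusted p = 0.075). Of the 21 fits that each left out an array, the Slc2a1 call was lost in 6 (adjusted p from 0.051 to 0.22) and the Pfkp call in 11 (adjusted p from 0.050 to 0.23), while Slc2a3 passed in 6 (0.59 to 0.75). For Hk2 the difference was -0.41 (95% interval -0.81 to -0.02, adjusted p = 0.13), which lay between -0.74 and -0.09 with an array left out and passed without experiment 3 control replicate 2 (-0.74, adjusted p = 0.015) or 100 µM replicate 2 (-0.54, adjusted p = 0.027). For Pgk1 it was 0.12 (95% interval -0.11 to 0.36, adjusted p = 0.44).

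The chamber and the incubator were compared through the rises they gave. By limma 0 of 14 probe sets differed in their rise, against 1.01% of all tested, and 4 of 14 had an unadjusted p under 0.05, against 18.1% of all tested, so that this count was not far from the background. All 4 had the smaller rise in the chamber, as did 8.63% of all tested at that threshold. These were Slc2a1 (-0.49, adjusted p = 0.12), Pfkp 97834_g_at (-0.67, adjusted p = 0.18), Eno2 (-0.54, adjusted p = 0.22) and Hk2 94375_at (-0.46, adjusted p = 0.25). Slc2a1 and Pfkp passed when only the hypoxia sets were fitted (adjusted p = 0.031 and 0.023) and with array weights (adjusted p = 0.0079 and 0.0091). The device and the set of samples cannot be told apart here. Between experiments 1 and 2, both in the incubator, limma again called 0 of 14, against 0.177% of all tested, and Slc2a1 alone had an unadjusted p under 0.05, as 7.80% of all tested had (0.47 higher in experiment 1, adjusted p = 0.47).

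The controls themselves differed between the 4 sets for 4 of 14 probe sets in a moderated F test, against 25.8% of all tested. Pfkl spanned 1.65 log2 units between group means (adjusted p = 3.9e-05), from 7.78 ± 0.24 in experiment 3 to 9.43 ± 0.07 in the chamber set (SD, n = 2 each). Ldha spanned 0.96 (adjusted p = 2.5e-04), with experiment 3 again lowest at 10.93 ± 0.02 and the controls of experiment 1 highest at 11.89 ± 0.06 (SD, n = 2 each). Aldoa (160090_f_at) spanned 0.57 (adjusted p = 0.024), also lowest in experiment 3, and Pgk1 spanned 0.47 (adjusted p = 0.015), with the chamber controls highest. Without experiment 1 control replicate 2, 2 of the 14 passed. The other Aldoa probe set, 161889_f_at, had its highest control mean in experiment 3 (10.16, against 9.73 to 9.95 in the other sets). The low Pfkl, Ldha and Aldoa (160090_f_at) controls were on the arrays with the large Actb 3′ to 5′ differences given above, and the part of that in their levels was not tested.

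Of a list of 21 other genes of glucose entry and glycolysis, 15 were measured. At 1% oxygen 6 of them rose, 1 fell and 8 did not pass the test, with a median of 0.11 against 0.02 over all probe sets. Of all probe sets tested, 10.4% were called higher and 15.6% lower there. Aldoc, the brain aldolase, rose by 1.77 (adjusted p = 8.8e-13), Pgam1, a phosphoglycerate mutase, by 0.66 (adjusted p = 5.6e-08), Tpi1, the triose phosphate isomerase, by 0.63 (adjusted p = 1.4e-07) and Pkm, a pyruvate kinase, by 0.41 (adjusted p = 1.2e-04). The gene that fell, named after its value was seen, was the muscle enolase Eno3 (-0.26, adjusted p = 0.0011). With CoCl2, 7 rose and 1 fell at 100 µM, where 16% of all probe sets tested were called higher and 17% lower. At 200 µM 5 rose and 0 fell, where 17.5% were called higher and 18.4% lower. Aldoc changed by 2.32 and 1.88 at the 2 doses, Tpi1 by 0.74 and 1.08, Pkm by 0.92 and 1.36 and Pgam1 by 0.64 and 0.58, all called.

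Among genes that steer pyruvate and lactate, 14 of 22 were measured. At 1% oxygen, where 10.4% of all probe sets tested were called higher, 3 rose while 0 fell. They were the pyruvate dehydrogenase kinases Pdk1 (1.53, adjusted p = 1.4e-12) and Pdk3 (1.35, adjusted p = 4.5e-09), which switch off the entry of pyruvate into the citric acid cycle, and Bsg (1.28, adjusted p = 9.2e-09), the partner protein of lactate transporters. At 100 µM CoCl2 they changed by 1.90, 1.22 and 1.51, all called, and at 200 µM by 0.69 (called), 0.53 (adjusted p = 0.052) and 2.32 (called). In all, 4 of this list rose and 2 fell at 100 µM, where 16% of all probe sets tested were called higher and 17% lower. At 200 µM 3 rose and 2 fell, where 17.5% were called higher and 18.4% lower. Those that fell, named after their values were seen, were Pdha1 (-0.97 and -0.98) and Dlat (-0.69 and -0.68), subunits of the pyruvate dehydrogenase complex. The second Dlat probe set gave 0.31 (adjusted p = 0.030) and 0.23 (adjusted p = 0.098). Pdhb, another subunit of this complex, went the other way and was called higher at both doses (0.54, adjusted p = 0.016, and 0.90, adjusted p = 1.6e-04). In the pentose phosphate pathway, which branches off after hexokinase, 7 of 9 genes were measured, 0 rose and 3 fell at 1% oxygen, where 15.6% of all probe sets tested were called lower. They were Taldo1 (-0.56, adjusted p = 2.8e-04), Pgd (-0.44, adjusted p = 0.0019) and Pgls (-0.36, adjusted p = 3.1e-04). With CoCl2, 1 rose and 2 fell at each dose, against the shares of all probe sets tested given above. Pgd was called higher (0.81 and 0.66). Pgls (-0.85 and -1.06) and Rpia (-0.38 and -0.59), a ribose phosphate isomerase named after its values were seen, were called lower. The second Pgd probe set gave 0.04 at 1% oxygen (adjusted p = 0.86), 0.61 at 100 µM (adjusted p = 0.026) and 0.14 at 200 µM (adjusted p = 0.59). In the opposite pathway, gluconeogenesis, 5 of 6 genes were measured. At 1% oxygen Pck2 (-0.50, adjusted p = 1.7e-05) and G6pc3 (-0.22, adjusted p = 0.024) fell while 0 rose, against the same 15.6% called lower. With CoCl2, 0 rose and 1 fell at 100 µM, and 1 rose and 1 fell at 200 µM, against the same shares as above. Pck2 changed by -0.65 at 100 µM and -1.88 at 200 µM, both called lower, and its second probe set gave -0.21 at 1% oxygen (adjusted p = 0.049), 0.03 at 100 µM (adjusted p = 0.88) and -0.53 at 200 µM (adjusted p = 0.0074). G6pc3 gave 0.22 at 100 µM (adjusted p = 0.20) and was called higher at 200 µM (0.48, adjusted p = 0.0088).

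The genes whose signals followed each of the 10 most closely over the 21 arrays are given as a description, since the same arrays and treatments underlie every value. Slc2a1 was closest to Pkp2 (Pearson r = 0.985) and Sap30 (0.968), and Hk2 to Bhlhe40 (0.982) and Sap30 (0.980). Pfkp was closest to Gys1 and Selenbp1 (0.965 each), Eno2 to Gys1 (0.954) and Itpk1 (0.950), and Pfkl to Plekho1 (0.973) and the glycolytic Tpi1 (0.970). Sap30 and Gys1 thus each came up for a pair of the genes. Ldha was closest to Gabarap (0.953) and Ctnnd1 (0.939), Pgk1 to Anxa2 (0.945) and Jmjd6 (0.939), and Aldoa to Tom1 (0.920) and Bsg (0.915). The genes that did not pass the test at 1% oxygen had other companions with a lower r. These were Flii (0.873) and Timm8b (0.870) for Hk1 and Syt11 (0.774) and H2-Aa (0.746) for Slc2a3. Such an r depends on how much a gene varies between the groups, so a lower r does not show a looser link.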

How the data were processed

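RNA from 21 B16-F10 samples was hybridised to 1 Affymetrix U74Av2 array each. The deposited values are log2 signals per probe set, made by the authors with GCOS 1.2 and RMA per the submitters' processing notes; RMA's version, and whether 1 RMA run covered every array, is not given in the sources used here. Scaling was left as deposited, without any further step. Gene names came from GEO's annotation of the array, in which 10833 probe sets tested had 1 gene, 396 several and 1193 none; 66 Affymetrix control probe sets were left out of the tests. No detection calls were used.

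Using limma 3.58.1 (R 4.3.3), each probe set's values on the 21 arrays were modelled by the 9 group means (12 residual degrees of freedom, 20.1 after moderation). All tests are two-sided. Adjustment used the Benjamini-Hochberg method over the 12422 probe sets, with calls at an adjusted p under 0.05. The effect of hypoxia is the mean of the differences in the 3 sets. The controls of the chamber set were placed there because, like its hypoxia samples, their titles carry no experiment number. Samples with the same replicate number in a set had residual correlations between -0.340 and 0.326, so they were not treated as paired. The number of arrays limits the precision. The model's steps were tested on simulated data.

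All member probe sets are named; of other pathway genes, up to 4 called ones per list by the size of the hypoxia effect, and for likeness the 2 genes with the highest correlation among those whose group means had an SD of at least 0.3. The genes and lists were chosen with earlier results of these data known.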

Additional observations from a re-analysis of the deposited data

Results flagged for a closer look

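Differences between effects that passed the limma test were found for 5 probe sets. For CoCl2 minus hypoxia 2 of 14 passed, against 20.2% of all probe sets tested. Between the doses 3 of 14 passed, against 13.6%. The effect of CoCl2 exceeded that of 1% oxygen by 0.42 for Slc2a1 (adjusted p = 0.034) and fell short of it for Pfkp 97834_g_at (-0.67, adjusted p = 0.042). Between the CoCl2 doses, 200 µM minus 100 µM, the differences were 0.81 for Pfkl (adjusted p = 0.011), 0.61 for Hk1 (adjusted p = 0.013) and -0.63 for Eno2 (adjusted p = 0.042). Each dose had 2 arrays, all in experiment 3, so for CoCl2 minus hypoxia the agent and the set of samples cannot be told apart. None of the 5 calls held under every setting given below.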

How the results depend on the processing

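The counts of called probe sets for hypoxia (mean and single sets) and for each CoCl2 dose stayed within 1.5 times of those given, under array medians aligned, quantile normalisation, a filter at the 40th percentile, 1 probe set per gene, a variance trend, array weights, the replicate block, only the sets compared and each array left out. For CoCl2 minus hypoxia the 2 calls became 1 with medians aligned or array weights, 4 with quantile normalisation, 0 with the replicate block and 1 to 3 with an array left out. For the dose step the 3 calls became 0 with array weights, with only experiment 3 or with the Actb covariate (chosen after seeing the data), and 0 to 7 with an array left out. For chamber minus incubator the 0 became 2 with array weights or only the sets compared, and was 0 with each array left out. The 4 calls between controls were 2 to 4 with an array left out; the replicate block was not run there. The Hk2 minus Hk1 shift turned to -0.09 with probe set 161313_at, and the Pfkl dose step to -0.45 with the covariate. The causes were not tested. Of the other values of single probe sets, 1138 kept direction and call, 41 lost and 30 gained a call; with an array left out these were 1245, 51 and 20.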
